A study of Mus musculus with 4 samples.

Results

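The genes of the PD-1 ligands and of the B7 and related costimulation molecules were followed through the tumor leukocytes. The 7 genes were taken by symbol: *Cd274* (PD-L1), *Pdcd1lg2* (PD-L2), *Cd80* (B7-1), *Cd86* (B7-2), *Cd83*, *Cd40* and *Icosl* (ICOS ligand), of 32285 genes counted. The rule itself used no measured value, and all 7 were detected in both libraries. The tumors were YUMMER1.7 melanomas, an immunogenic line of mouse melanoma cells, grown in wild-type male C57BL/6J mice of 7 to 8 weeks. The long cohort was treated for 2 weeks with 4 doses and harvested on day 21, and the short cohort for 1 week with 2 doses and harvested on day 14. Each cohort had an isotype antibody arm, an anti–PD-1 arm (10 mg/kg), an anti-MIF arm (20 mg/kg, against the cytokine macrophage migration inhibitory factor) and an arm that received both (anti–PD-1/anti-MIF, the combination). Sorted CD45- and CD45+ cells were recombined at 20% and 80%, the arms of a cohort were marked with hashtag antibodies, and each cohort was run as 1 pooled 5′ single-cell library. An arm is thus 1 hashtagged sample per cohort, mice within it cannot be separated, and p-values measure the spread between these 8 samples.

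The long library held 2516 barcodes and 23702910 UMIs (unique molecules), and the short library 4987 barcodes and 31799441 UMIs. After hashtag assignment and quality filters, 1671 cells remained in the 4 long arms (204 isotype, 319 anti–PD-1, 879 anti-MIF, 269 anti–PD-1/anti-MIF), at a median of 8242 UMIs. In the short arms 3119 cells remained (745, 1370, 556 and 448 in the same order), at a median of 5835 UMIs. The libraries shared 20 barcodes, and leaving those cells out changed the call of none of the 7 genes in any comparison.

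PD-1 on T cells is engaged by either of its ligands, PD-L1 and PD-L2, and dampens signaling through the T cell receptor and CD28. CD80 and CD86 bind CD28, which costimulates, and CTLA-4, which inhibits, while ICOS ligand binds ICOS on activated T cells. CD40 receives CD40 ligand from helper T cells and drives antigen-presenting cells to mature through the NF-κB pathways, and CD83 is a surface marker of mature dendritic cells.

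The PD-1 ligand genes are neighbors. *Cd274* (ENSMUSG00000016496) lies at chr19:29367455-29388095 and *Pdcd1lg2* (ENSMUSG00000016498) at chr19:29410919-29471161 of GRCm38, both on the plus strand and 22824 bases apart. *Cd80* (chr16:38455561-38496335, plus) and *Cd86* (chr16:36603869-36666081, minus) share a chromosome. *Cd83* is at chr13:43784775-43803132, *Cd40* at chr2:165055627-165072948 and *Icosl* at chr10:78069302-78083913, all on the plus strand. RefSeq promoter sequences (GRCm38.p6, 250 bases before to 50 after the start) matched 4 of the 7 genes, and 3 are shown because these genes were higher together in the mature dendritic cell gate described below. The RefSeq start of *Cd80* lies inside the GENCODE gene span given above, so the starts of these annotations differ, and positions are counted from the RefSeq start. Capitals mark matches, on either strand, to a loose κB-like pattern (GGG, any 5 bases, then CC).
Cd274, chr19:29367188-29367487, plus strand: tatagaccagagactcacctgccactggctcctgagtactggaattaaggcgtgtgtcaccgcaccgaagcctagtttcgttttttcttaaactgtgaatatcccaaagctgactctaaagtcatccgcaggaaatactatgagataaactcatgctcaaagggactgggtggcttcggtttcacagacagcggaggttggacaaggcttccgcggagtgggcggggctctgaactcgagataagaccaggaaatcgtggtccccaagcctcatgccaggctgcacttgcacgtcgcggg
Pdcd1lg2, chr19:29410669-29410968, plus strand: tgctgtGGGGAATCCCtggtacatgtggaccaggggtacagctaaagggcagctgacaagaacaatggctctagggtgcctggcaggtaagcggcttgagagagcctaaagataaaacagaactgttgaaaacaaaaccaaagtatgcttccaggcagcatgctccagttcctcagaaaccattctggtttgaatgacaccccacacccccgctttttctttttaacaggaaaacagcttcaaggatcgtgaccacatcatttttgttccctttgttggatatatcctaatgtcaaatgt
Cd80, chr16:38458683-38458982, plus strand: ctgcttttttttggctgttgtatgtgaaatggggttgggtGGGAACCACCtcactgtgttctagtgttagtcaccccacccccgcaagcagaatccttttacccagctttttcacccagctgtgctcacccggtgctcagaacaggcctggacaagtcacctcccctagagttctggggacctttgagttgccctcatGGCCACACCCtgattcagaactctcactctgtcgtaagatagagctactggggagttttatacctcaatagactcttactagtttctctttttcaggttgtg
The pattern was absent from the *Cd274* window, occurred in *Pdcd1lg2* at bases -244 to -235 from the start, and occurred in *Cd80* at -210 to -201 and, on the minus strand, at -52 to -43. *Icosl*, the remaining matched promoter, held it at -111 to -102 (minus strand) and -71 to -62. Of all 32851 promoter windows, 50.8% hold it. The *Pdcd1lg2* bases fit the pattern on both strands. The interferon-γ activation pattern (TTC, any 3 bases, then GAA; 8.30% of windows) and the interferon response core (GAAA, any 2 bases, then GAAA; 3.44%) were in none of the 4 matched promoters. These are matches of letters and not measured binding.

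Lineages were gated by at least 1 UMI of fixed genes, none of them among the 7: *Cd3e* for T cells, *Siglech* for plasmacytoid dendritic cells (pDC), *Ccr7* and *Fscn1* for mature dendritic cells (mature DC), and *Lyz2* with *Ly6c2* or *C1qb* for monocytes and macrophages. The long arms gave 253 T, 42 pDC, 102 mature DC and 820 monocyte/macrophage cells, and the short arms 289, 44, 46 and 1861. Cells that met more than 1 gate (28 long, 31 short) were left out. Cells that met no gate (426 of 1671 long, 25.5%, and 848 of 3119 short, 27.2%) entered no test, and some are read below by other markers. The gates were checked on markers not used to draw them. The 6 mature DC markers summed to 3441 CPM (UMIs per 1000000 UMIs of the sum) in the long mature DC gate and 2997 CPM in the short one, against 20.1 and 8.71 CPM in the monocyte/macrophage gate. T cell markers summed to 3804 and 3241 CPM in the T gate and to 6.23 CPM or less in the mature DC gate. The pDC markers summed to 10249 and 10957 CPM in the pDC gate. Mature DC sums were small, with 6 to 68 cells per arm, and pDC sums smaller still, with 4 to 19; the long anti–PD-1/anti-MIF arm had 4 pDC and entered no pDC test. In such sums, fewer expressing cells and less RNA per cell cannot be told apart, so shares of cells are given further on.

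Mature DC lay above the monocyte/macrophage gate in every arm, without overlap, for *Cd274*, *Pdcd1lg2*, *Cd80*, *Cd83* and *Cd40*. *Cd86* and *Icosl* overlapped between these gates, and mature DC lay above T cells in every arm for all 7. Mature DC were not tested against T cells. The share of all genes that separate the gates without overlap was not counted, so these orders are descriptions. Of the 6 members tested, 5 were higher in mature DC than in the monocyte/macrophage gate (edgeR quasi-likelihood test across arms, Benjamini-Hochberg adjusted), and none was lower. Among these 5, *Pdcd1lg2* and *Cd40* passed the count filter only with the mature DC sums, so their part in this count is a description, not a test. The background was broad: 28.2% of the 3856 genes tested were higher in mature DC and 36.6% were lower. The median log2 fold change of the 6 members was 2.10, against -0.15 for all genes tested. *Icosl* was below the count filter.

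**Figure D1:**
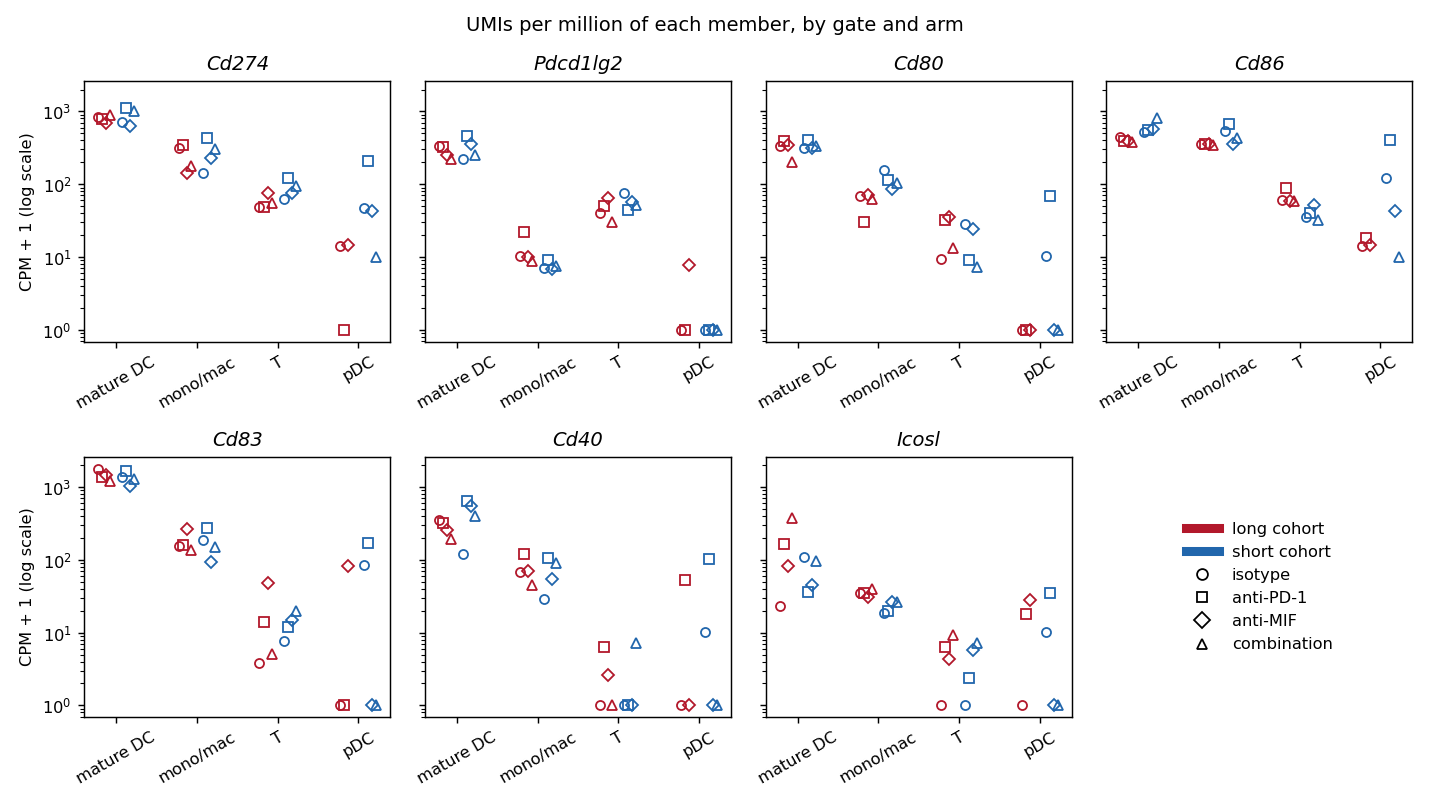
CPM plus 1 (log axis) of the 7 genes in the 4 gates; each symbol is 1 treatment arm of the long (red) or short (blue) cohort, sums under 5 cells are left out, and no error bars are drawn. For *Pdcd1lg2* the 8 T cell sums (29.0 to 74.8 CPM) lie above all 8 monocyte/macrophage sums (5.74 to 21.3 CPM) and below all 8 mature DC sums (223 to 458 CPM).

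*Pdcd1lg2*, the second PD-1 ligand, had the largest fold difference of the 6 tested members between mature DC and the monocyte/macrophage gate. In mature DC it stood at 335, 319, 253 and 223 CPM in the isotype, anti–PD-1, anti-MIF and combination arms of the long cohort and at 224, 458, 357 and 253 CPM in the same arms of the short cohort. In the monocyte/macrophage gate it stood at 9.17, 21.3, 8.92 and 7.74 CPM in the long arms and 6.15, 7.99, 5.74 and 6.43 CPM in the short arms. The groups did not overlap, and the fitted difference was 33.4-fold (log2 fold change 5.06 ± 0.21 SE). *Pdcd1lg2* passed the count filter through the mature DC gate. The filter thus set the direction of this difference, which is a description, not a test. Within the cohorts fitted alone the log2 fold change was 4.58 ± 0.27 (long) and 5.47 ± 0.32 (short).

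Among the 4 gates, T cells came second to mature DC for *Pdcd1lg2*. Its level in the T gate was 39.6, 49.9, 64.1 and 29.0 CPM in the long arms and 74.8, 43.3, 56.2 and 50.2 CPM in the short arms, above the monocyte/macrophage gate in 8 of 8 arms with no overlap. The T gate was 5.68-fold higher (log2 fold change 2.51 ± 0.23 SE, adjusted p = 6.09e-12), and *Pdcd1lg2* was the only tested member that was higher in T cells, where 37.6% of all tested genes were higher and 32.5% lower (70.1% in either direction). The other 5 tested members were lower in T cells. The 79 long and 63 short UMIs of the gene came from 65 of 253 and 49 of 289 T cells, with at most 4 UMIs in a cell. Mature DC markers summed to 2.53 (long) and 6.36 CPM (short) in the T gate, with *Flt3* at 0 UMIs in both and *Ccl22* at 0 in the short cohort. The monocyte/macrophage markers summed to 409 and 768 CPM there, of which *Plac8* made up 339 and 658 CPM. Natural killer cell markers summed to 23.4 CPM in the long and 199 CPM in the short T gate. The part of these other cell types' RNA in the T cell value was not tested. By T cell subset, *Pdcd1lg2* was at 46.6 CPM (95% Poisson interval 35.6 to 59.8) in 193 long cells with *Cd8a* and no *Cd4*, and at 41.1 CPM (28.3 to 57.7) in 169 such short cells. In cells with *Cd4* and no *Cd8a* it was at 54.4 CPM (24.9 to 103) and 38.5 CPM (14.1 to 83.8), so the intervals of the subsets overlapped. Natural killer cells, gated by *Ncr1*, held 55.1 CPM (29.4 to 94.3, 34 cells) in the long and 90.4 CPM (69.0 to 116, 101 cells) in the short cohort. These intervals cover counting error only. pDC had 1 *Pdcd1lg2* UMI in all.

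*Cd274*, the first PD-1 ligand, was spread more widely over the gates. It stood at 849, 793, 703 and 882 CPM in mature DC of the long arms and 725, 1128, 624 and 1027 CPM in the short arms. In the monocyte/macrophage gate it stood at 316, 345, 142 and 177 CPM (long) and 143, 434, 229 and 301 CPM (short). Mature DC exceeded the monocyte/macrophage gate in 8 of 8 arms without overlap, by 3.42-fold (log2 fold change 1.77 ± 0.18 SE, adjusted p = 1.32e-10). T cells held 47.3 to 122 CPM, a 3.51-fold lower level than the monocyte/macrophage gate (log2 fold change -1.81 ± 0.21, adjusted p = 1.62e-09). In pDC the arms ranged from 0 to 205 CPM and the level was 8.95-fold lower than in the monocyte/macrophage gate (log2 fold change -3.16 ± 0.36, adjusted p = 3.97e-09). Within the cohorts fitted alone it was -4.79 ± 0.60 (long) and -2.58 ± 0.40 (short). The highest pDC value rested on 6 UMIs in the 6 cells of the short anti–PD-1 arm. Neutrophils, gated by *S100a8* and *Csf3r*, were at 392 CPM (267 to 557, 27 cells) and 454 CPM (324 to 618, 40 cells), against 186 CPM (177 to 195) and 302 CPM (293 to 311) in the pooled monocyte/macrophage gate; this difference was not tested across arms.

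*Cd80* and *Cd86*, the ligands of CD28 and CTLA-4, differed from each other in where they were high. *Cd80* stood at 335, 386, 343 and 203 CPM in the long mature DC arms and 314, 406, 312 and 332 CPM in the short ones. Its monocyte/macrophage level was 66.8, 29.3, 69.9 and 61.2 CPM (long) and 154, 114, 83.7 and 103 CPM (short). Mature DC were above it in every arm, by 3.98-fold (log2 fold change 1.99 ± 0.23 SE, adjusted p = 2.47e-09).

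*Cd86* stood at 447, 386, 397 and 385 CPM in long and 525.7, 547, 579.7 and 806 CPM in short mature DC. In the monocyte/macrophage gate it was at 356, 359, 356 and 347 CPM (long) and 538, 667, 354 and 425 CPM (short). Mature DC were higher in 6 of 8 arms, the groups overlapped, and the difference did not pass the test (log2 fold change 0.24 ± 0.22 SE, adjusted p = 0.345). *Cd86* was lower in T cells (31.4 to 86.7 CPM, log2 fold change -2.92 ± 0.25, adjusted p = 2.58e-12) and in pDC (-3.00 ± 0.36, adjusted p = 1.02e-08). *Cd80* was lower likewise (T -2.08 ± 0.30, adjusted p = 2.59e-07, and pDC -4.13 ± 0.70, adjusted p = 5.65e-06). With the cohorts fitted alone (long, then short) *Cd86* was -2.66 and -3.79 in T cells and -4.98 and -2.46 in pDC. *Cd80* was -1.50 and -3.18 in T cells and -8.70 and -3.62 in pDC, where it had 3 UMIs in the tested sums. The pDC signal of *Cd86* was uneven, since 13 of its 27 short UMIs came from 1 cell of the isotype arm and 10 from 1 cell of the anti–PD-1 arm. In the long cohort 14 of 18 UMIs came from 1 cell of the combination arm, which was not in the test. *March1*, which encodes the ubiquitin ligase that removes CD86 from the cell surface, had 0 UMIs in mature DC against 106 CPM in the monocyte/macrophage gate, at least 45.6-fold lower when set against 3 UMIs over all mature DC sums.

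**Figure D2:**
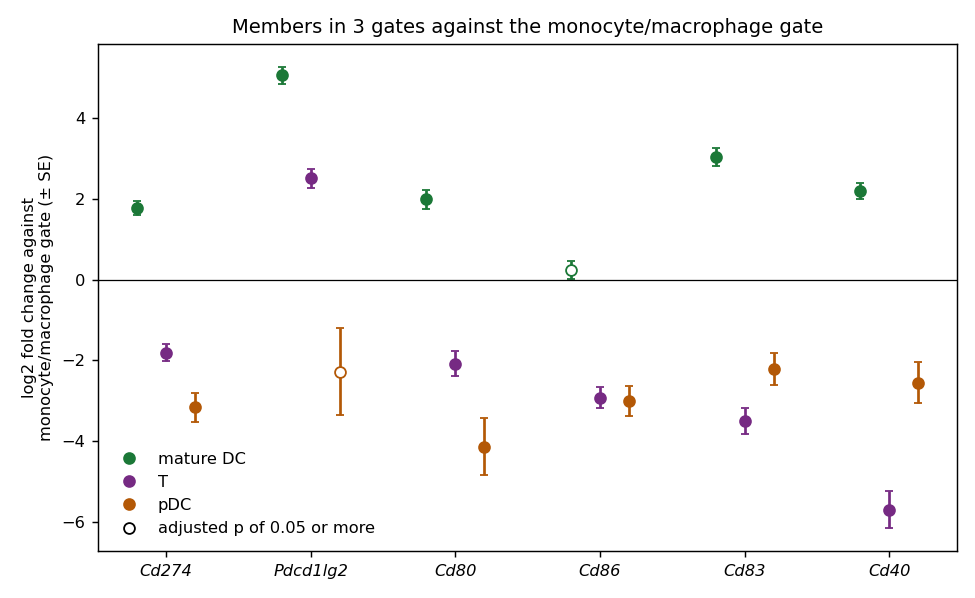
Log2 fold change (± SE, edgeR) of 6 genes in the mature DC, T and pDC gates against the monocyte/macrophage gate over the 8 arms (7 for pDC); open symbols have an adjusted p of 0.05 or more. *Pdcd1lg2* is the only gene with a T cell value above 0 (2.51), and *Cd86* has the smallest mature DC value (0.24).

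*Cd40*, the receptor, and *Cd83*, the maturation marker, were also highest in mature DC. *Cd83* stood at 1799, 1394, 1463 and 1196 CPM in the long and 1366, 1675, 1048 and 1296 CPM in the short mature DC arms, and at 91.4 to 272 CPM in the monocyte/macrophage gate. The groups were far apart, and the fitted difference was 8.23-fold (log2 fold change 3.04 ± 0.21 SE, adjusted p = 1.44e-14). *Cd40* stood at 358, 319, 258 and 193 CPM (long) and 121, 635, 557 and 395 CPM (short) in mature DC, and at 27.7 to 119 CPM in the monocyte/macrophage gate. Every mature DC arm lay above every monocyte/macrophage arm, by 4.62-fold in the fit (log2 fold change 2.21 ± 0.20). The lowest *Cd40* value in mature DC, the short isotype arm, rested on 20 UMIs. *Cd40* passed the count filter only with the mature DC sums, so this fold is a description, not a test. *Cd40* was nearly absent from T cells, with 3 UMIs in 253 long and 1 in 289 short cells (log2 fold change -5.69 ± 0.45, adjusted p = 2.86e-13), and *Cd83* was lower there too (-3.50 ± 0.31, adjusted p = 5.00e-12). In pDC both were lower than in the monocyte/macrophage gate (*Cd83* -2.21 ± 0.40, adjusted p = 1.46e-05; *Cd40* -2.55 ± 0.52, adjusted p = 8.11e-05). Of the 6 members tested in pDC, 5 were thus lower and none higher, against 27.4% lower and 24.5% higher among all genes tested, and *Pdcd1lg2* did not pass (log2 fold change -2.28 ± 1.07, adjusted p = 0.0744). Its pDC value rested on 1 UMI, in the long anti-MIF arm. Without that arm it passed at a fitted -5.68 (adjusted p = 0.0386), but no pDC UMI was then left, so this is not a measured fold. *Pdcd1lg2* also passed with stricter hashtag assignment (-2.46, adjusted p = 0.0316) and without the count filter (-2.72, adjusted p = 0.0417).

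*Icosl* was sparse. In mature DC it stood at 22.4, 163, 81.2 and 375 CPM in the long arms and 109, 35.3, 44.6 and 94.8 CPM in the short arms, from 2 to 52 UMIs each, and in the monocyte/macrophage gate at 17.9 to 38.7 CPM. Mature DC were higher in 7 of 8 arms, with the long isotype arm lower. Without the count filter the log2 fold change was 1.67 ± 0.23 (adjusted p = 1.24e-11) in mature DC, -3.48 ± 0.38 (adjusted p = 7.70e-19) in T cells and -1.58 ± 0.51 (adjusted p = 0.0111) in pDC. B cells, gated by *Cd79a* and *Ms4a1*, had 256.6 CPM (94.2 to 559, 7 cells) in the long and 63.3 CPM (17.2 to 162, 21 cells) in the short cohort.

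Conventional type 1 dendritic cells outside the gates (*Xcr1* or *Clec9a*) gave a further point of reference. *Pdcd1lg2* was at 27.3 CPM (14.9 to 45.7) in 41 long and 50.1 CPM (24.0 to 92.1) in 18 short such cells, against 267 CPM (235 to 301) and 288 CPM (233 to 352) in pooled mature DC. *Cd86* was at 315 CPM (269 to 368) and 341 CPM (265 to 432), against 399 CPM (360 to 440) and 590 CPM (510 to 679) in mature DC. *Cd274* was at 134 CPM (105 to 170) and 185 CPM (131 to 256). These values come from pooled cells with no test across arms.

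Shares of cells were compared after each cell was thinned to 2000 UMIs, which removed shallower cells (26 of 253 long and 42 of 289 short T cells, and 2 of 102 and 3 of 46 mature DC). A *Cd274* UMI was found in 63.0% of long mature DC (exact 95% interval 52.8 to 72.4, n = 100) and 62.8% of short mature DC (46.7 to 77.0, n = 43), against 26.0% and 34.1% of the monocyte/macrophage gate and 11.5% and 15.4% of T cells. *Pdcd1lg2* was found in 33.0% (23.9 to 43.1) and 44.2% (29.1 to 60.1) of mature DC, in 10.6% (6.89 to 15.3) and 7.69% (4.69 to 11.8) of T cells and in 1.62% (0.867 to 2.76) and 1.5% (0.991 to 2.18) of the monocyte/macrophage gate. The order of the gates for *Pdcd1lg2* was therefore the same by share of cells as by level. At full depth the shares in the same order were 74.5% and 71.7%, 25.7% and 17.0%, and 6.83% and 3.92%, at median depths of 8933 and 7410, 5087 and 3970, and 10976 and 6886 UMIs. Free RNA was not measured. In T cells the other members ranged from *Cd40*, in 0.441% of long cells and 0 of 247 short cells (3 cells of which would be 1.21%), through *Cd83* (3.08% and 2.83%) and *Cd80* (4.85% and 2.43%) to *Cd86* (11.9% and 7.69%) and *Cd274*. *Cd86* was found in 45.0% and 60.5% of mature DC and in 46.6% and 56.0% of the monocyte/macrophage gate, and the intervals overlapped in both cohorts.

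**Figure D3:**
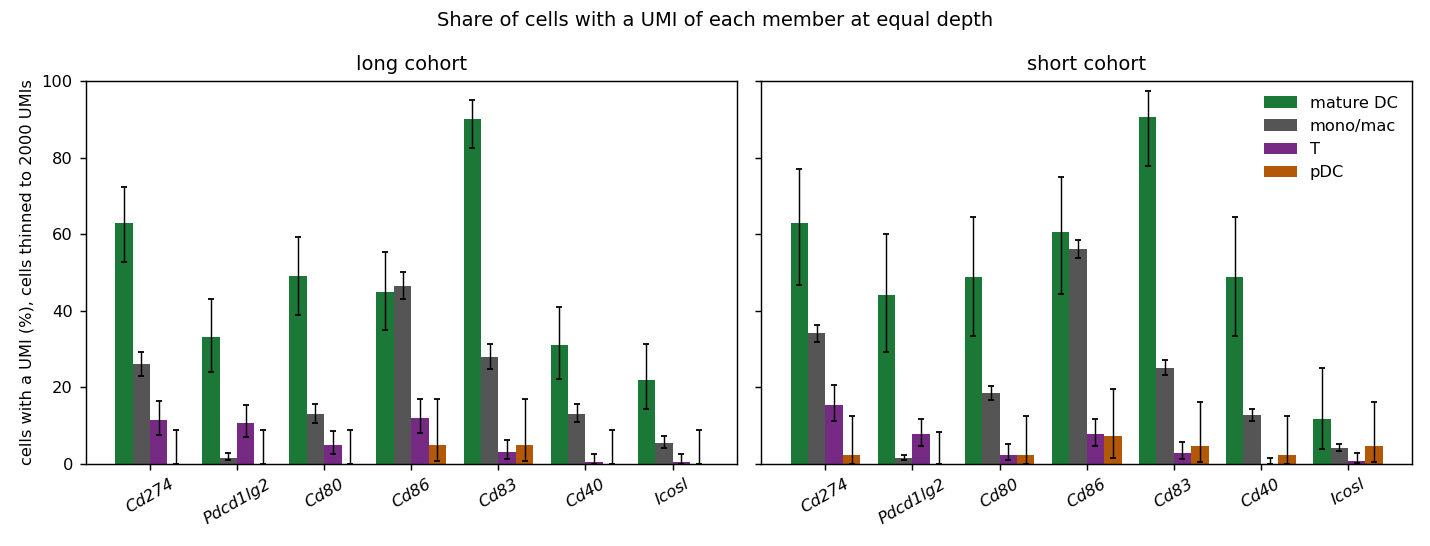
Share of cells (%) with at least 1 UMI of each gene after thinning to 2000 UMIs, by gate and cohort, with exact 95% binomial intervals (counting error only). *Cd83* is found in 90.0% and 90.7% of mature DC, and *Pdcd1lg2* in more T cells (10.6% and 7.69%) than monocyte/macrophage cells (1.62% and 1.5%).

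UMIs of both PD-1 ligands were counted per cell. At full depth 73 of 102 long mature DC had UMIs of both, 20 of *Cd274* only, 3 of *Pdcd1lg2* only and 6 of neither, and in the short cohort the numbers were 31, 9, 2 and 4 of 46. After thinning to 2000 UMIs, 26 of 100 long and 10 of 43 short mature DC had both. At full depth in the monocyte/macrophage gate, 43 of 820 long and 62 of 1861 short cells had both, while 418 and 983 had *Cd274* only. In T cells 24 of 253 and 22 of 289 had both, and 41 and 27 had *Pdcd1lg2* only. A mature DC held UMIs of a median of 6 (long) and 5 (short) of the 7 genes, a monocyte or macrophage 3 in both cohorts, and a pDC 0. After thinning the medians were 3 and 4 in mature DC, 1 in the monocyte/macrophage gate and 0 in T cells and pDC.

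Within the monocyte/macrophage gate, cells with *Ly6c2* and no *C1qb* (monocyte side) were set beside cells with *C1qb* and no *Ly6c2* (macrophage side). *Cd40* was lower on the macrophage side in 8 of 8 arms, at 84.9 CPM (75.1 to 95.7) against 51.9 CPM (44.3 to 60.4) in the pooled long cells and 71.8 CPM (66.5 to 77.4) against 28.1 CPM (19.6 to 39.1) in the short cells. *Cd274* was at 233 CPM (216 to 250) on the monocyte side against 139.7 CPM (127 to 153) in the long cohort and at 307 CPM (296 to 319) against 162 CPM (140 to 186) in the short cohort, with the macrophage side higher in 3 of 8 arms. These pools mix arms in different proportions: the long anti-MIF arm gave 215 of 277 macrophage-side but 130 of 317 monocyte-side cells. Within the long isotype and anti–PD-1 arms *Cd274* was at 307 and 290 CPM on the monocyte side and 334 and 296 CPM on the macrophage side, with overlapping intervals. *Cd83* ran the other way in the pooled long cells, 197 CPM (182 to 213) against 291 CPM (272 to 309.9), and was higher on the macrophage side in 5 of 8 arms. These splits were not tested across arms.

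Over the 31 sums of the 4 gates, *Cd274*, *Cd80*, *Cd86*, *Cd83* and *Cd40* varied alike, with r of at least 0.84 for each pair. Pearson r of log2(CPM + 10) was 0.93 between *Cd274* and *Cd80*, 0.90 between *Cd274* and *Cd83*, and 0.69 between *Cd274* and its neighbor *Pdcd1lg2*. *Pdcd1lg2* and *Cd86* were the least alike pair (0.41). The sums share arms, libraries and gates, so these are descriptions. Among 8477 genes, those most like *Pdcd1lg2* were *Ly75* (0.97), *Traf1* (0.96) and *Nck2* (0.95). *Ly75*, which encodes the dendritic cell uptake receptor DEC-205, averaged 440.5 CPM in mature DC, 43.8 in T cells and 3.36 in the monocyte/macrophage gate. The closest to *Cd274* were *Asap1* (0.94), *C9orf72* (0.93) and *Cd80* (0.93), and to *Cd80* were *Pcgf5* (0.93), *Cd274* and *Cd83* (0.92). *Cd83* and *Cd40* shared *C9orf72* (0.94 and 0.93) and *Nuak2* (0.93 and 0.93), followed by *Anxa3* (0.93) for *Cd83* and *Htr7* (0.93) for *Cd40*. *Cd86* was closest to *Cdkn1a* (0.93), then *Cd80* and *Cd274* (0.90 and 0.89), and *Icosl* to *Psmb10* (0.86), *Htr7* (0.85) and *Ube2l6* (0.85).

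The 43 other genes of the pathway, a list chosen with earlier results of these data known, were read in the same fits. Of the 27 tested in mature DC, 16 were higher and 5 lower than in the monocyte/macrophage gate, with a median log2 fold change of 1.18, where 28.2% of all genes tested were higher and 36.6% lower and their median was -0.15. All 9 tested genes of CD40 signaling were higher (median 1.91). Of these, *Relb*, *Map3k14*, *Nfkb2*, *Rela* and *Traf6* passed the count filter through the mature DC gate. The filter set their direction, so their values and the count of 9 are descriptions, not tests. The largest values included *Relb*, a subunit of the noncanonical NF-κB pathway (4.30 ± 0.20 SE), the kinase gene *Map3k14* (3.56 ± 0.17) and *Nfkb2* (2.76 ± 0.17). The adaptor *Traf1* (4.14 ± 0.21, adjusted p = 2.48e-18) and *Traf3* (1.91 ± 0.16, adjusted p = 1.20e-12) were the others. Genes of the interferon-γ route were mixed: of 9 tested, 4 were higher and 2 lower (median -0.03). *Jak2* (2.15 ± 0.19) and *Stat3* (2.00 ± 0.13) were higher, and *Ifngr1*, a chain of the interferon-γ receptor, was lower (-2.20 ± 0.25). Among other ligands, *Cd200* was higher (300.2 to 662 CPM in mature DC, log2 fold change 8.11 ± 0.43, adjusted p = 8.27e-18), while *Vsir*, which encodes VISTA (-4.26 ± 0.33), and *Lgals9*, which encodes galectin-9 (-4.73 ± 0.35), were lower. With single arms left out *Cd200* ran from 7.63 to 9.63 and *Lgals9* from -5.55 to -4.06. The monocyte/macrophage sums held 35 UMIs of *Cd200*.

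**Figure D4:**
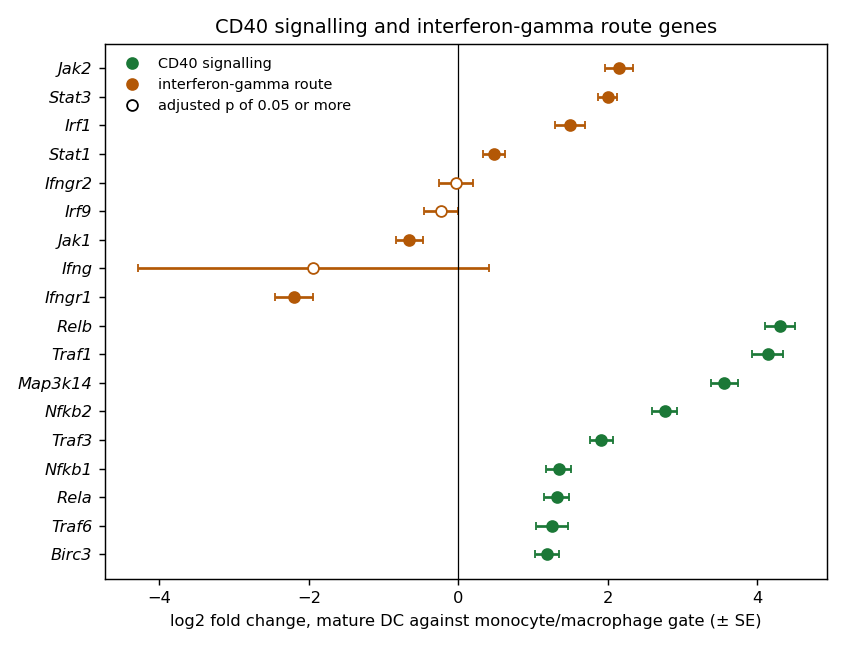
Log2 fold change (± SE, edgeR) in the mature DC gate against the monocyte/macrophage gate of the tested genes of CD40 signaling (green) and the interferon-γ route (orange); open symbols have an adjusted p of 0.05 or more. All 9 CD40 signaling genes lie above 0, from *Birc3* (1.18) to *Relb* (4.30), whereas the interferon-γ route spans -2.20 (*Ifngr1*) to 2.15 (*Jak2*). *Relb*, *Map3k14*, *Nfkb2*, *Rela* and *Traf6* passed the count filter through the mature DC gate, which set their direction.

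Of the 7 genes in the receptor group, 4 passed the count filter, and these had most of their counts in the T gate. *Pdcd1* was at 169.6 to 602 CPM, *Cd28* at 142 to 238 CPM, *Ctla4* at 276 to 1169 CPM and *Icos* at 159 to 446 CPM there. In the monocyte/macrophage gate they held 15, 35, 45 and 15 UMIs in all. The fitted log2 fold changes in T cells were 8.96 ± 0.28, 6.91 ± 0.23, 7.98 ± 0.26 and 8.73 ± 0.29. Because these genes passed the filter through the T gate, the filter set their direction, and the values are descriptions, not tests. *Rgmb*, which encodes another binding partner of PD-L2 and was not tested, lay elsewhere, at a median over arms of 0.677 CPM in T cells (7 UMIs), 30.0 CPM in mature DC (38 UMIs) and 4.91 CPM in the monocyte/macrophage gate (158 UMIs). *Ifng*, at 75.4 to 803 CPM in T cells and 8 UMIs in the monocyte/macrophage gate, also passed the filter through the T gate. Its value (log2 fold change 9.04 ± 0.31) is likewise a description, not a test. *Jak1* (1.16 ± 0.13), *Stat3* (1.40 ± 0.12), *Ifngr1* (1.16 ± 0.16) and *Cd200* (3.75 ± 0.57) were higher in T cells. With single arms left out the *Cd200* value ran from 3.10 to 5.01. *Ifngr2* (-4.76 ± 0.35), *Lgals9* (-1.47 ± 0.19) and *March1* (3 UMIs in all T cells) were lower. In all, 10 of the 27 tested pathway genes were higher and 9 lower in T cells, close to the 37.6% and 32.5% of all genes tested, with a median log2 fold change of -0.04 against 0.08 for all genes tested. The higher genes include the 4 receptors and *Ifng*. *Pdcd1* was also found in mature DC, at 0 to 141 CPM (91 UMIs), against at most 1.31 CPM in the monocyte/macrophage gate. In pDC 3 of the 27 were higher and 9 lower, where 24.5% and 27.4% of all genes were (median -0.12, against -0.02 for all genes tested). *Cd200* (6.21 ± 0.60, and 5.86 to 7.83 with single arms left out) and *Stat3* (0.55 ± 0.16) were higher. *Ifngr1* (-3.25 ± 0.35), *Traf1* (-2.33 ± 0.53), *Vsir* (-1.80 ± 0.27), *Nfkb2* (-1.43 ± 0.41) and *Traf3* (-1.39 ± 0.32) were lower. The pDC calls of *Traf1*, *Nfkb2* and *Stat3* were lost under other settings. *Traf1* was -1.84 (adjusted p = 0.0649) with thinned cells and -0.83 (adjusted p = 0.281) against macrophages alone. *Nfkb2* was -1.12 (adjusted p = 0.102) in the long cohort alone and -0.65 (adjusted p = 0.281) against macrophages alone. *Stat3* was 0.046 (adjusted p = 0.994) without the count filter. It also lost its call without the short isotype arm (0.39, adjusted p = 0.0867) or the short anti–PD-1/anti-MIF arm (0.42, adjusted p = 0.0521).

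The cohorts were compared next, to ask whether longer treatment altered the members. Cohort cannot be told apart from library, harvest day and number of doses. None of the 7 members passed the test in the monocyte/macrophage gate (edgeR, 4 arms per cohort), where 3.71% of 8955 genes were called (133, or 1.49%, higher and 199, or 2.22%, lower in the long cohort) and the median member log2 fold change was 0.08 against 0.02 for all genes. The number of genes called in the whole table was unstable, at 0 without the anti–PD-1 arm of either cohort and 938 without the short isotype arm. *Cd80* was nearest (29.3 to 69.9 CPM long, 83.7 to 154 CPM short), with no overlap between cohorts and a log2 fold change of -0.99 ± 0.24 (adjusted p = 0.0590). DESeq2 called it (-1.03, adjusted p = 0.00949), and over all settings its adjusted p ran from 4.02e-07 to 0.508. *Icosl* also did not overlap (29.5 to 38.7 against 17.9 to 25.6 CPM; log2 fold change 0.63 ± 0.18, adjusted p = 0.0819). *Pdcd1lg2* (0.80 ± 0.29, adjusted p = 0.129) was higher in the long cohort in 4 of 4 arms, and *Cd86* (-0.44 ± 0.17, adjusted p = 0.141) was lower in 3 of 4. *Cd274* (-0.19 ± 0.28, adjusted p = 0.716), *Cd83* (0.08 ± 0.32, adjusted p = 0.914) and *Cd40* (0.18 ± 0.28, adjusted p = 0.722) had standard errors larger than their differences or close to them. *Cd274* passed without the long isotype arm (-0.60, adjusted p = 0.0389) or the short isotype arm (-0.58, adjusted p = 0.0418). Of the pathway list, *Traf3* (-0.65 ± 0.13, adjusted p = 0.0353) and *Stat3* (-0.60 ± 0.13, adjusted p = 0.0488) fell in the long cohort, 2 of 29 tested. Both calls were lost when any of the 3 treated arms of either cohort was left out (adjusted p 0.102 to 0.210), with log2 fold changes of -0.60 to -0.71 for *Traf3* and -0.51 to -0.68 for *Stat3*. With thinned cells *Traf3* was -0.49 (adjusted p = 0.314) and *Stat3* -0.50 (adjusted p = 0.171). *Stat3* was -0.47 (adjusted p = 0.106) on the monocyte side alone and -0.0048 (adjusted p = 0.997) on the macrophage side alone, where *Traf3* was -0.56 (adjusted p = 0.688).

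The make-up of the gate differed between arms and cohorts. Neutrophil markers summed to 1125 CPM in the long and 398 CPM in the short monocyte/macrophage gate. Cells with *C1qb* were 28.4%, 44.7%, 73.3% and 53.1% of the long isotype, anti–PD-1, anti-MIF and combination-arm monocyte/macrophage cells and 35.7%, 25.8%, 30.5% and 23.4% of the short ones. On the monocyte side alone the *Cd80* log2 fold change was -0.81 ± 0.26 (adjusted p = 0.0990), and on the macrophage side alone -1.16 ± 0.57 (adjusted p = 0.508). The part of neutrophil RNA in the cohort values was not tested. In mature DC none of the 6 tested members passed (0.5% of 1400 genes were called, 0.286% higher and 0.214% lower). *Cd86* was nearest, lower in the long cohort in 4 of 4 arms without overlap (385 to 447 against 525.7 to 806 CPM; log2 fold change -0.56 ± 0.22, adjusted p = 0.269). In T cells *Cd86* ran the other way, at 57.6 to 86.7 CPM in the long and 31.4 to 51.5 CPM in the short arms; this was not tested.

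Treatment was tested in the monocyte/macrophage gate with terms for cohort, anti–PD-1 and anti-MIF. No member passed in either comparison. The main edgeR fit called no gene for anti-MIF (0% of 8955, with 617 at an unadjusted p under 0.05) or for anti–PD-1 (0%, with 440). DESeq2 called 7 and 1 genes, and edgeR without the count filter called 44 and 19. In the main fit none of the 29 tested pathway genes was called. *Cd274* was higher with anti–PD-1 in 4 of 4 pairs of arms, from 316 to 345 and 142 to 177 CPM in the long cohort and from 143 to 434 and 229 to 301 CPM in the short cohort (log2 fold change 0.58 ± 0.27, unadjusted p = 0.0567, adjusted p = 0.925). The isotype arms of the cohorts (316 and 143 CPM) differed by more than the arms of 3 of these 4 pairs. From the long isotype to the long anti–PD-1 arm the ratio was 1.09 (0.928 to 1.29), within counting error. The *Cd274* value ran from 0.26 without the short isotype arm to 0.89 without the long isotype arm. With anti-MIF, *Cd274* was lower in 3 of 4 pairs (-0.57 ± 0.27, adjusted p = 0.733), and *Pdcd1lg2* (-0.54 ± 0.29, adjusted p = 0.740) and *Cd86* (-0.38 ± 0.15, adjusted p = 0.702) were lower in 4 of 4. These steps were uneven: the long *Cd86* pairs had ratios of 0.998 (0.879 to 1.14) and 0.965 (0.845 to 1.10) against 0.659 and 0.637 in the short pairs, and for *Pdcd1lg2* the intervals of 3 of the 4 ratios spanned 1. *Cd40* was higher with anti–PD-1 in 3 of 4 pairs (0.78 ± 0.33, adjusted p = 0.925), and ran from 0.33 without the short isotype arm to 1.20 without the long combination arm. For anti-MIF, leaving out single arms took *Cd274* from -0.91 (without the short isotype arm) to -0.30 (without the long isotype arm) and *Pdcd1lg2* to -0.26 (without the long anti–PD-1 arm). The remaining members had log2 fold changes from -0.36 to 0.20 for anti-MIF and from -0.30 to 0.40 for anti–PD-1. The median over the 7 members was -0.36 for anti-MIF and 0.16 for the PD-1 antibody, against 0.01 and -0.01 for all genes tested; the comparisons share their arms. The share of cells with *C1qb* given above differed between these arms too, from 28.4% in the long isotype to 73.3% in the long anti-MIF arm. The anti-MIF value of *Cd274* was -0.35 ± 0.20 on the monocyte side alone and -0.24 ± 0.46 on the macrophage side alone, and neither passed. On the monocyte side alone the anti–PD-1 value of *Cd274* was 0.46 ± 0.20 and on the macrophage side alone 1.09 ± 0.46, and neither passed (adjusted p = 1.00 in both).

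**Figure D5:**
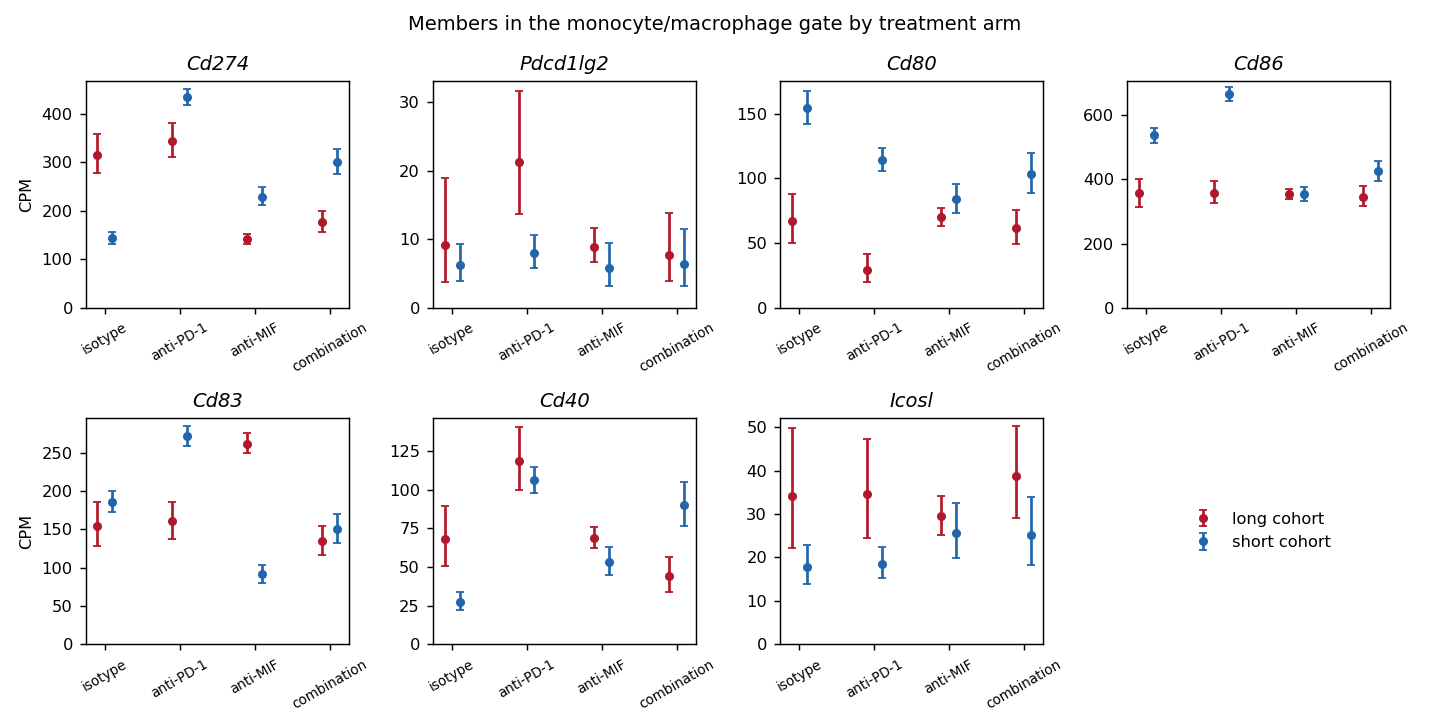
CPM of the 7 genes in the monocyte/macrophage gate by treatment arm and cohort (points, 1 sum of cells each; bars, 95% Poisson intervals, counting error only). *Cd274* is lowest in the long anti-MIF (142 CPM) and short isotype (143 CPM) arms and highest in the short anti–PD-1 arm (434 CPM), and *Cd80* is higher in each short arm than in any long arm.

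The treatments were not tested in mature DC, where arms held 6 to 68 cells. *Cd274* was highest there in the short anti–PD-1 (1128 CPM) and anti–PD-1/anti-MIF (1027 CPM) arms, and *Cd83* was lower with anti-MIF in 4 of 4 pairs of arms, although the intervals of 3 of the 4 ratios spanned 1. *Cd40* was higher with anti-MIF in 1 of 4 pairs, from the short isotype (121 CPM) to the short anti-MIF arm (557 CPM, ratio 4.61, 2.46 to 8.76). It was also higher with anti–PD-1 in 1 of 4 pairs, from the same short isotype arm to the short anti–PD-1 arm (635 CPM, ratio 5.25, 2.96 to 9.58). Both steps rest on that isotype sum of 20 UMIs. *Pdcd1lg2* was higher with anti–PD-1 in 1 of 4 pairs and higher with anti-MIF in 1 of 4.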

How the data were processed

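The deposited files hold 2 pooled 10x 5′ libraries with hashtags as UMI counts, which the authors made with Cell Ranger 7.1.0 on mm10 and filtered to cells; the submitters' notes also name Seurat 5.1.0. The 7 genes and all lists were chosen with earlier results of these data known. Barcodes were assigned to arms with HTODemux (Seurat 5.3.0, R 4.3.3, positive quantile 0.99), which removed hashtag doublets; doublets within an arm and free RNA remained. Cells with 200 to 5000 genes and at most 5% mitochondrial UMIs were kept. A further hashtag (anti-PD1-MIF-DDT), outside the labels' arms, entered no comparison. UMIs were summed per arm and gate (at least 5 cells) and tested in edgeR 4.0.16 (filterByExpr, TMM, quasi-likelihood test, Benjamini-Hochberg adjusted p under 0.05): gates with arm as a block, cohorts with arm as a block, and treatments additively with cohort. SE is the log2 fold change over the root of F. DESeq2 1.42.0, other demultiplexing, filters, gates, depth and leaving out each arm were alternatives. The named genes were the 7, up to 12 called pathway genes per comparison that moved alike in every arm, and the 3 genes most correlated with each member (at least 200 UMIs). On simulated counts, 87.6% of 1-log2 changes were recovered for mature DC, 70.5% and 75.8% for cohort and anti-MIF in the monocyte/macrophage gate, and 62.8% for cohort in mature DC. Depth per arm was 1563467 to 8712647 UMIs. Positions are from GENCODE vM21 on GRCm38.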

Additional observations from a re-analysis of the deposited data

Results flagged for a closer look

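In the monocyte/macrophage gate, *Cd80* was higher with anti-MIF in both long pairs of arms (66.8 to 69.9 and 29.3 to 61.2 CPM) and lower in both short pairs (154 to 83.7 and 114 to 103 CPM). The difference between the cohorts' log2 fold changes was 1.05 ± 0.39 (SE), and it did not pass the edgeR test across genes (adjusted p = 0.396, unadjusted p = 0.0243). In 2 of these 4 pairs the ratio of CPM was within counting error (1.05, 0.781 to 1.43, long; 0.906, 0.763 to 1.07, short). In the same test none of the other members passed either, among them *Cd83* 1.34 ± 0.45 (adjusted p = 0.366), *Cd86* 0.65 ± 0.22 (adjusted p = 0.367) and *Cd274* -1.02 ± 0.42 (adjusted p = 0.444).

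On the scale of log2(CPM + 10), the T cell minus monocyte/macrophage difference of *Icosl* was -2.14 in the long isotype arm, the lowest of the 8 arms. No T cell had a UMI of *Icosl* in the isotype arm of either cohort, and T cells held 6 UMIs in the long and 3 in the short cohort. It was the only such arm among 21 sets of arms, and chance gives about 1 in 20.

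The hashtag labelled anti-PD1-MIF-DDT, which entered no comparison, held levels that differed from the isotype arm for some members, as ratios of CPM with intervals for counting error and no replicate. In the long monocyte/macrophage gate the ratio was 1.53 (1.33 to 1.77) for *Cd274*, 1.89 (1.66 to 2.16) for *Cd86*, 2.42 (1.99 to 2.96) for *Cd83* and 1.96 (1.46 to 2.69) for *Cd40*. In the short one it was 2.14 (1.93 to 2.37) for *Cd274*, 2.40 (1.91 to 3.05) for *Cd40*, 1.16 (1.05 to 1.28) for *Cd83*, 1.08 (1.02 to 1.14) for *Cd86* and 0.851 (0.757 to 0.957) for *Cd80*. In mature DC it was 1.69 (1.18 to 2.39) for *Cd274* and 0.14 (0.0162 to 0.552) for *Cd80* in 4 long cells, and 2.76 (1.97 to 3.85) for *Cd86* and 4.61 (2.46 to 8.76) for *Cd40* in 7 short cells. In T cells it was 5.02 (2.64 to 9.81) for *Cd274*, 7.37 (1.68 to 44.2) for *Cd80* and 31.6 (4.49 to 1371) for *Cd83* in the long cohort, the last 2 against 3 UMIs and 1 UMI in the isotype arm, and 2.96 (1.03 to 10.3) for *Cd86* in the short cohort. The isotype arms themselves differed. In the short monocyte/macrophage gate the hashtag held 306 CPM of *Cd274* and 66.5 CPM of *Cd40*. Both lay below the long isotype arm (316 and 68.1 CPM). The short *Cd40* ratio in mature DC rests on 20 isotype UMIs (121 CPM). The hashtag's 557 CPM there lay within the other short arms (395 to 635 CPM).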

How the results depend on the processing

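The calls of the members tested in mature DC and T cells against the monocyte/macrophage gate kept their direction and side of the threshold in every setting run, except *Cd86* in mature DC, which was -0.055 with sums of at least 10 cells and -0.073 without the count filter. Log2 fold changes differed between the cohorts fitted alone (long, then short). In mature DC *Cd80* was 2.41 and 1.49 and *Cd40* 1.86 and 2.51. In T cells *Pdcd1lg2* was 1.90 and 2.83, *Cd40* -5.42 and -6.63 and *Cd83* -3.44 and -4.09. In pDC *Cd40* was -3.20 and -2.25 and *Cd83* -2.77 and -1.95. Without the filter 19564 genes were tested in the gate comparisons in place of 3856, and the genes called were 5396 (mature DC), 4021 (pDC), 6744 (T), 1340 (cohort, monocyte/macrophage), 15 (cohort, mature DC), 44 (anti-MIF) and 19 (anti–PD-1); with cells thinned to 2000 UMIs they were 894, 738 and 990 of 1392 tested for the gates, 117 of 5159 and 2 of 296 for the cohorts. T cells gave 4525 of 7067 tested with sums of at least 10 cells. The cohort comparison in the monocyte/macrophage gate gave 771 with MULTIseqDemux, 951 without the arm block, 0 in macrophages alone and 0 to 938 when single arms were left out (0 without either anti–PD-1 arm, 2 without either anti-MIF arm), with 1 member called by MULTIseqDemux and DESeq2, 2 without the filter or the block, and 0 to 1 with arms left out. In mature DC the cohort count was 0 to 9 with arms left out. Anti-MIF called 1 gene in monocytes alone and 7 by DESeq2, and anti–PD-1 called 1 by DESeq2 and 0 to 1 with arms left out. Causes were not tested.

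Signs turned only for differences that had not passed. For the cohorts in the monocyte/macrophage gate, *Cd83* was -0.066 (MULTIseqDemux), -0.012 (gates at 2 UMIs) and -0.042 (thinned), and *Cd40* was -0.44 (thinned); with arms left out *Cd274* ran from -0.60 to 0.011, *Cd83* from -0.39 to 0.37 and *Cd40* from -0.11 to 0.52. In mature DC *Cd83* was -0.080 (thinned), and with arms left out *Cd274* ran from -0.18 to 0.12, *Pdcd1lg2* from -0.40 to 0.046 and *Cd80* from -0.19 to 0.058. For anti-MIF, *Cd80* was 0.038 in monocytes alone, *Cd40* 0.19 and *Icosl* -0.14 (thinned), and with arms left out *Cd80* ran from -0.41 to 0.20 and *Cd40* from -0.58 to 0.19. For anti–PD-1, *Cd80* was 0.041 and *Cd83* -0.55 in macrophages alone and *Icosl* -0.030 in monocytes alone, and with arms left out *Cd83* ran from -0.23 to 0.52 and *Icosl* from -0.020 to 0.25. Mature DC and pDC sums rest on few cells, which limits their precision.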
